A study of Rattus norvegicus with 5 samples.

Results

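Broad H4K5Ac domains are stretches of the rat genome over which the H4K5Ac signal of the dorsal striatum stayed above input for 3 kb or more. They were found in non-overlapping 1 kb windows on chromosomes 1 to 20. A window was called raised when the 4 ChIP libraries together held 27 or more tags in it, and when that sum per 1000000 ChIP tags was at least 2 times the input count plus 1 per 1000000 input tags. A broad domain was a run of 3 or more consecutive raised windows. Of 2558185 windows, 65726 (2.57%) were raised, and they formed 48880 runs. Of these runs, 3405 (6.97%) were broad domains, 7934 were runs of 2 windows and 37541 were single windows. The broad domains held 12317 windows, which is 18.7% of the raised windows, and covered 12.317 Mb, or 0.481% of the 20 chromosomes. Width, tag number and enrichment over input chose these domains, so those values are given below as a description and were not tested.

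The series compared H4K5Ac ChIP-Seq in the dorsal striatum of male Sprague-Dawley rats pretreated with saline or methamphetamine (METH) over 2 weeks and challenged with saline or METH 16 to 18 h after the last pretreatment injection. The groups were saline-pretreated rats challenged with saline (SS, 4 samples pooled) or with 5 mg/kg of METH (SM, 3 samples pooled), and METH-pretreated rats challenged with saline (MS, 3 samples pooled) or with 5 mg/kg of METH (MM, 4 samples pooled). All rats were euthanized 2 h after the challenge. Each group was 1 library, and 1 input library of 4 pooled samples served all groups, so no difference between groups had a replicate check and no p-value was computed. The labels do not say from which treatment group or groups the input samples came. The nuclear chromosomes held 8675632 tags from SS, 12621593 from SM, 5857375 from MS, 9307695 from MM and 17891766 from the input. A tag rate is the number of tags per kb per 1000000 nuclear tags of its library. Intervals are exact 95% intervals that cover counting error only. In whole tissue, acetylation in fewer cells and less acetylation per cell cannot be told apart.

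H4K5Ac is acetylation of a lysine in the N-terminal tail of histone H4. Acetyl groups are added by histone acetyltransferases and removed by histone deacetylases, and acetylated H4 tails hold DNA less tightly and are bound by bromodomain proteins. The mark is known for active promoters and enhancers, where it commonly covers several neighbouring nucleosomes. Most neurons of the dorsal striatum are medium spiny neurons, which receive dopamine input, and METH releases dopamine from its terminals. The positions of the domains follow rat build rn4. No gene annotation of that build was used here, so the domains are given by position, without gene names.

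Most broad domains lay close to the lower limit of width. There were 2214 domains of 3 kb (65.0%), 743 of 4 kb (21.8%), 240 of 5 kb (7.05%), 191 of 6 to 9 kb (5.61%) and 17 of 10 kb or more (0.499%). The median width was 3 kb, the mean 3.62 kb and the highest 19 kb. For comparison, runs were also counted with ChIP and input exchanged, with a minimum of 14 input tags for the same tag rate. The directions are not alike in counting error, since the mean per kb was 13.9 summed ChIP tags and 6.83 input tags. The exchanged count is therefore a description and not a rate of false domains. Exchanged, the data gave 37893 single windows but only 1332 runs of 2 and 75 runs of 3 or more, of which 65 were 3 kb long and the longest was 10 kb. Single raised windows were therefore about as frequent in the exchanged direction, while runs of 3 or more stood at 1.33 per Mb against 0.0293 per Mb.

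**Figure D1:**
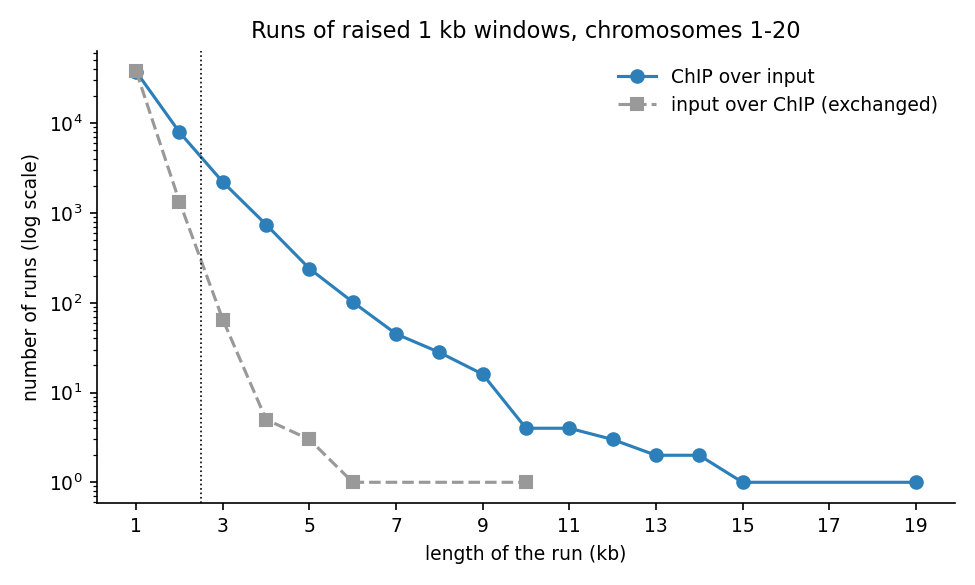
Number of runs of raised 1 kb windows (log scale) by run length in kb, for ChIP over input (circles) and for input over ChIP (squares); the dotted line marks the limit of 3 kb. The curves start together at 37541 and 37893 single windows and separate with length, to 2214 against 65 runs of 3 kb.

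Over all broad domains together, SS held 175936 tags, SM 251534, MS 128942, MM 194864 and the input 118160. These are 2.03% of the tags of SS (2.02 to 2.04), 1.99% of SM (1.99 to 2.00), 2.20% of MS (2.19 to 2.21), 2.09% of MM (2.084 to 2.103) and 0.660% of the input (0.657 to 0.664). The mean tag rate over the domains was 1.65 for SS, 1.62 for SM, 1.79 for MS, 1.70 for MM and 0.536 for the input. All 4 ChIP libraries were thus 3.02 to 3.33 times the input there, and MS stood highest. MS was also the library with the fewest tags, and SM, the lowest here, was the one with the most. MM, however, had more tags than SS and a higher rate. The part of depth in this order was not tested. A domain had a median of 46 tags from SS, 66 from SM, 34 from MS, 51 from MM and 31 from the input, so that the counting error of a single domain in a single library was large.

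Each library was then left out of the choice of the domains and counted in the domains that the other 3 libraries and the input gave. This count is independent of the rule for the ChIP tags, although the input served in both steps. SS stood at 2.86 times the input over 3443 domains chosen without it, SM at 2.80 times over 3770, MS at 3.17 times over 3183 and MM at 2.98 times over 3261. With 1 input tag added per window, as in the rule, the share of domains at 2 times the input or more was 80.5% (SS), 81.6% (SM), 85.1% (MS) and 84.8% (MM). Among all 3 kb stretches with as high a tag minimum in the other 3 libraries, whether or not above input, the shares were 14.3%, 14.8%, 20.1% and 16.5%.

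The left-out libraries were higher over the widest domains than over those of 3 kb, though not by even steps. In 3 kb domains the left-out rate over input was 2.81 (SS), 2.73 (SM), 3.14 (MS) and 2.93 (MM). In domains of 10 kb or more it was 3.42 in SS (16 domains), 3.18 in SM (19 domains), 3.60 in MS (20 domains) and 3.65 in MM (17 domains). Between them the order was not steady, since MS was at 3.12 in 4 kb domains, below its 3 kb value, and MM at 3.01 in 4 kb and 2.99 in 5 kb domains. All of the domains of 10 kb or more were at 2 times the input or more in the library left out. The input rate also differed with width, at 0.525 tags per kb per 1000000 in 3 kb domains and 0.598 in those of 10 kb or more among the 3405, and its part in the difference between widths was not tested.

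**Figure D2:**
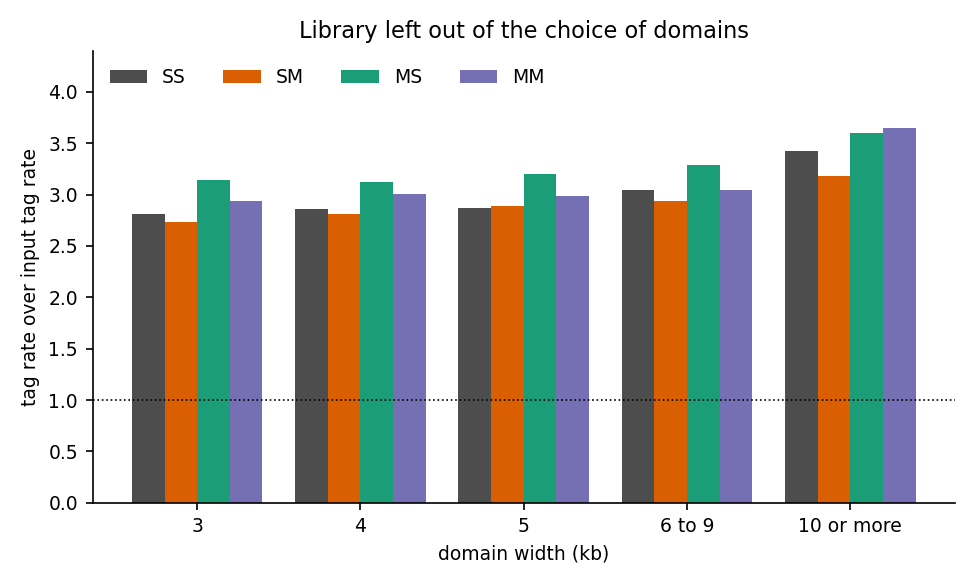
Tag rate of each ChIP library over the input rate (y axis), in domains chosen by the other 3 libraries, by domain width in kb (x axis); each bar is 1 library and the dotted line marks equality with input. SS goes from 2.81 at 3 kb to 3.42 at 10 kb or more, and MM from 2.93 to 3.65.

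Most domains also passed the limit over input in each ChIP library singly, although the same tags had chosen them. In all 4 ChIP libraries at once, 2577 of the 3405 domains (75.7%) were at 2 times the input or more, against 5.42% of the 80859 stretches of 3 kb on chromosomes 1 to 20 that held 81 or more ChIP tags. Of the others, 690 domains reached it in 3 libraries, 134 in 2 and 4 in 1. Of the 208 domains of 6 kb or more, 201 (96.6%) reached it in all 4 libraries. The stretches were chosen by ChIP tags alone, whether or not above input, while each window of a domain had to pass the input limit in the sum. The higher share of the domains thus follows at least partly from the rule. Because these tags also chose the domains, the shares are a description. Across the 3405 domains the tag rates of any pair of ChIP libraries correlated with Pearson's r of 0.609 to 0.693, while those of a ChIP library and the input correlated with r of 0.589 to 0.719. Both ChIP and input tags entered the rule, so these correlations are a description as well.

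The widest domain was 19 kb long, at chr15:46668001-46687000. It held 317 tags from SS, 393 from SM, 216 from MS, 346 from MM and 155 from the input, which gave rates of 1.92, 1.64, 1.94, 1.96 and 0.456. The rate of SM was 0.852 times that of SS (0.733 to 0.991), and those of MS and MM were 1.01 (0.845 to 1.20) and 1.02 times (0.871 to 1.19). The 19 windows were not even. The highest, the 7th, held 140 ChIP tags and the lowest, the first, held 35, and the 13th formed another rise with 98. The 7th window also held the most input tags, 18 against 9 in the 13th, and MS did not rise there, with 14 tags.

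The domain at chr3:156949001-156964000 was 15 kb long and held 395 tags from SS, 508 from SM, 282 from MS, 416 from MM and 180 from the input. Its rates of 3.04, 2.68, 3.21, 2.98 and 0.671 were higher in every ChIP library than those of the 19 kb domain. None of its ratios to SS had an interval that left out 1. The domain at chr16:7129001-7143000, 14 kb long, held 305 tags from SS, 363 from SM, 188 from MS, 304 from MM and 146 from the input, and its SM rate was 0.818 times that of SS (0.701 to 0.956). Within it, the 9th window held 59 tags in MM against 14 in SS, 36 in SM and 13 in MS, so that the peak of MM lay in another window than that of SS.

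The domain at chr6:128930001-128944000, also 14 kb, held 247 tags from SS, 349 from SM, 165 from MS, 262 from MM and 171 from the input. Its ChIP rates lay between 1.98 and 2.03, the closest of the 5 widest domains. The domain at chr3:149467001-149480000, 13 kb long, held 270 tags from SS, 369 from SM, 203 from MS, 293 from MM and 166 from the input. In all 5 widest domains the rate of SM was below that of SS, with ratios of 0.818 to 0.971, and 2 of the 5 intervals left out 1. When the libraries were instead scaled by their tags in 10 kb windows of low input, the 5 ratios were 0.910 to 1.08, of which 2 lay above 1, and 0 of the 5 intervals left out 1.

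**Figure D3:**
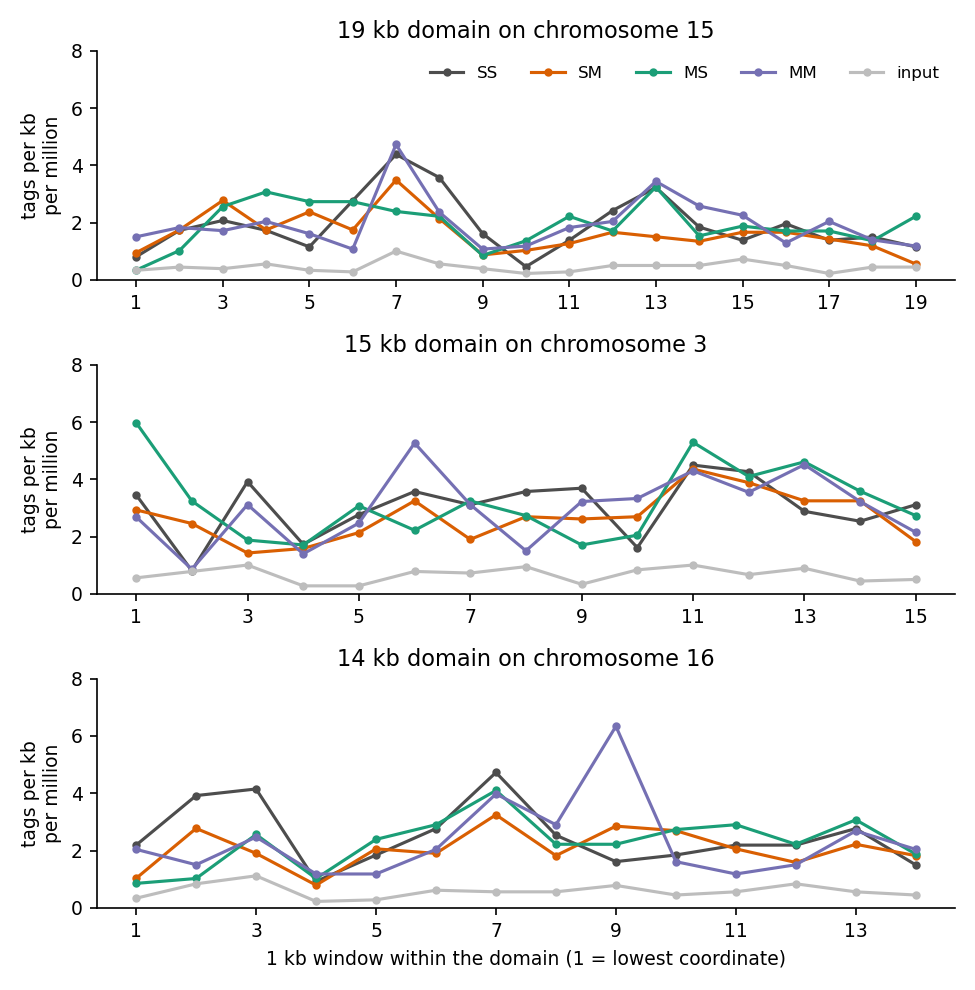
Tags per kb per 1000000 in each 1 kb window (x axis, numbered from the lowest coordinate) of the 3 widest domains, with 1 line per library. The ChIP lines lie above the input line in nearly all windows. SS, SM, MM and the input peak in the 7th window of the 19 kb domain, with 140 ChIP tags, and MS does not. The 9th window of the 14 kb domain is high mainly in MM, with 59 tags.

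The highest mean tag rate of the 4 ChIP libraries was found in a 7 kb domain at chr3:9748001-9755000, with 199 tags from SS, 297 from SM, 167 from MS, 247 from MM and 117 from the input. Its rates were 3.28 for SS, 3.36 for SM, 4.07 for MS, 3.79 for MM and 0.934 for the input. A 5 kb domain at chr20:4860001-4865000 followed, with 151, 240, 103, 170 and 75 tags in the same order. Its 4 ChIP rates, 3.48 to 3.80, differed by less than their counting intervals. A 4 kb domain at chr1:185708001-185712000 held 87 tags from SS, 184 from SM, 107 from MS, 132 from MM and 89 from the input. Here the ChIP libraries differed most among the 5, with rates of 2.51 for SS, 3.64 for SM, 4.57 for MS and 3.55 for MM. The MS rate was 1.82 times that of SS (1.36 to 2.45). The same domain had the highest input rate of all 3405 domains (1.24), and 1 of its windows held 253 of its ChIP tags.

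A 3 kb domain at chr9:85288001-85291000 held 82 tags from SS, 126 from SM, 64 from MS, 110 from MM and 33 from the input. A 4 kb domain at chr1:76657001-76661000 held 119 tags from SS, 155 from SM, 98 from MS, 109 from MM and 41 from the input. These domains had the least input of the 5, with input rates of 0.615 and 0.573, and the enrichment of the summed ChIP tags by the rule, which adds 1 input tag to each window, was 5.21 and 5.24.

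Within the domains the tags were not even. In 3 kb domains the highest window was the middle one in 1105 of 2214 (49.9%), where the middle is 33.3% of the windows. In the 208 domains of 6 kb or more it was at neither end in 185 (88.9%), where inner windows made up a mean of 71.0% of a domain. The end windows border windows that were not raised, so these shares partly follow from the rule. To locate the peak within a domain without the library being counted, the 300 bp with most tags were found in a pair of other ChIP libraries, while the 3405 domains themselves rested on all 4. At that place the rate was 2.46 for SS, 2.48 for SM, 2.78 for MS and 2.62 for MM, and 5 to 6 kb away it was 0.825, 0.859, 0.859 and 0.852. The mean peak was 800 to 1200 bp wide at the middle of its height. At the summit the libraries were 3.34 to 3.86 times the input, whose own rate was also higher there. With both the domains and the summit chosen by the other 3 libraries, the left-out rate at the summit was 2.45 (SS), 2.42 (SM), 2.79 (MS) and 2.63 (MM), or 3.22 to 3.69 times the input, and 5 to 6 kb away it was 0.828, 0.836, 0.869 and 0.862, or 1.48 to 1.55 times the input. The input served in this choice too, and its own rate was 0.730 to 0.761 at the summit and 0.550 to 0.563 away from it. Distances from the summit are not comparable with distances from a domain's end. At 5 to 10 kb beyond an end, with all raised windows left out, the libraries stood at 1.19 to 1.26 times the input.

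**Figure D4:**
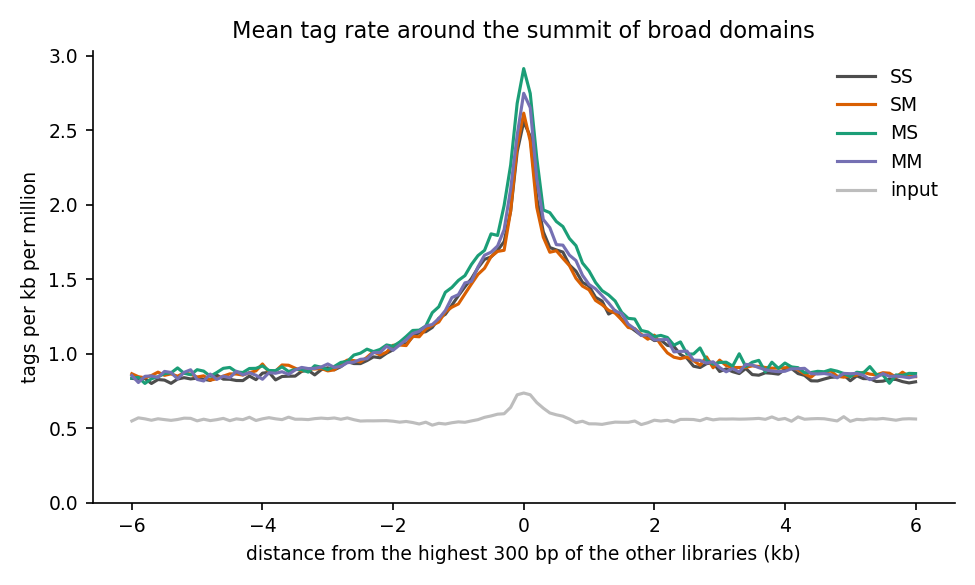
Mean tag rate in tags per kb per 1000000 (y axis) by distance in kb from the 300 bp with most tags in a pair of other ChIP libraries (x axis), over the 3405 domains; each line is 1 library, and the input line is the mean over the summit choices. All ChIP lines rise from 0.825 to 0.859 at 5 to 6 kb to 2.46 to 2.78 over the central 300 bp, with MS highest at the summit, and the input line has a smaller rise at the same place.

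Outside the domains the signal was much lower but stayed above input. In the first kb beyond an end, with all raised windows left out, the libraries stood at 1.43 to 1.49 times the input, in the second kb at 1.27 to 1.33 times and at 25 to 50 kb at 1.12 to 1.18 times. Beside single raised windows the same distances gave 1.28 to 1.34, 1.16 to 1.21 and 1.06 to 1.12 times. The surroundings of broad domains were thus higher than those of single windows at each distance and in each library. The place of the ends follows from the rule, which also used the input. The input rate was 0.474 in the 100 bp just inside an end and 0.652 in the 100 bp just outside it. The SS rate was 1.16 and 1.04 at the same places. The part of the input in the fall of the ratio was not tested.

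The input library itself was higher in these regions. The domains held a mean of 9.59 input tags per kb against 6.83 over all windows (1.40 times) and 7.94 over windows with a tag (1.21 times). Single raised windows held 7.10 and runs of 2 held 9.02. The input lay above the mean of windows with a tag in 2537 domains (74.5%). The rule asks for high ChIP counts relative to input, so this is a description. The part of fragment abundance or mappability in the choice of domains was not tested.

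The median distance to the nearest other domain was 52 kb. Another domain lay within 1 kb of 180 domains (5.29%), within 10 kb of 762 (22.4%), within 100 kb of 2151 (63.2%) and within 1 Mb of 3180 (93.4%). Of the runs of 2 windows, 52.3% had a broad domain within 100 kb, and of the single raised windows 45.0% had one. Runs of 2, which are more numerous, lay closer to their own kind, with a median of 35 kb and 75.8% within 100 kb, and single raised windows closer still, with 8 kb and 95.7%, so that closeness was not particular to broad domains. Joined over gaps of up to 10 kb, the 762 domains formed 331 chains, of which 261 were pairs, 54 held 3 domains and 16 held 4 to 8.

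Domains in chains were wider and had higher rates. Their mean width was 4.01 kb against 3.51 kb for the 2643 domains without a neighbour within 10 kb, and 12.3% of them against 4.31% were 6 kb or more. Their rates were 1.76 for SS, 1.72 for SM, 1.88 for MS and 1.81 for MM, against 1.61, 1.59, 1.76 and 1.66 in domains without such a neighbour. The input rates moved the same way, at 0.564 against 0.527.

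The chain with most domains lay at chr8:66637001-66699000. It spanned 62 kb, held 8 domains with 40 kb in all, and had 749 tags from SS, 1013 from SM, 448 from MS, 798 from MM and 457 from the input. Its rates were 2.16 for SS, 2.01 for SM, 1.91 for MS and 2.14 for MM. MS thus had the lowest ChIP rate there, in contrast to all domains together. No intervals were computed for chains, and the order of the libraries was not tested. The 15 kb domain on chromosome 3 belonged to a chain of 5 domains at chr3:156919001-156970000, with 674 tags from SS, 893 from SM, 508 from MS, 707 from MM and 360 from the input. The domain with the highest mean rate belonged to another chain of 5 on the same chromosome, chr3:9727001-9768000, with 736, 1022, 624, 853 and 431 tags. In this chain the rate of MS was 3.55 and that of SS 2.83.

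The domains were unevenly spread over the chromosomes. Chromosome 10 held 2.75 domains per Mb (304 domains), chromosome 12 held 2.48 (116) and chromosome 19 held 2.06 (122), against 1.33 per Mb over all. Chromosome 2 held the fewest, with 0.697 per Mb (180 domains), so that chromosome 10 held 3.94 times as many per Mb. Raised windows as a whole ranged less, from 16.7 per Mb on chromosome 2 to 48.2 on chromosome 12 (2.89 times). The share of raised windows that lay in broad domains was lowest on chromosome 17 (13.9%) and highest on chromosome 10 (22.2%). Over the 20 chromosomes the number of domains per Mb and the mean input rate of the chromosome had a Pearson's r of 0.899, and the part of the input in the density was not tested.

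**Figure D5:**
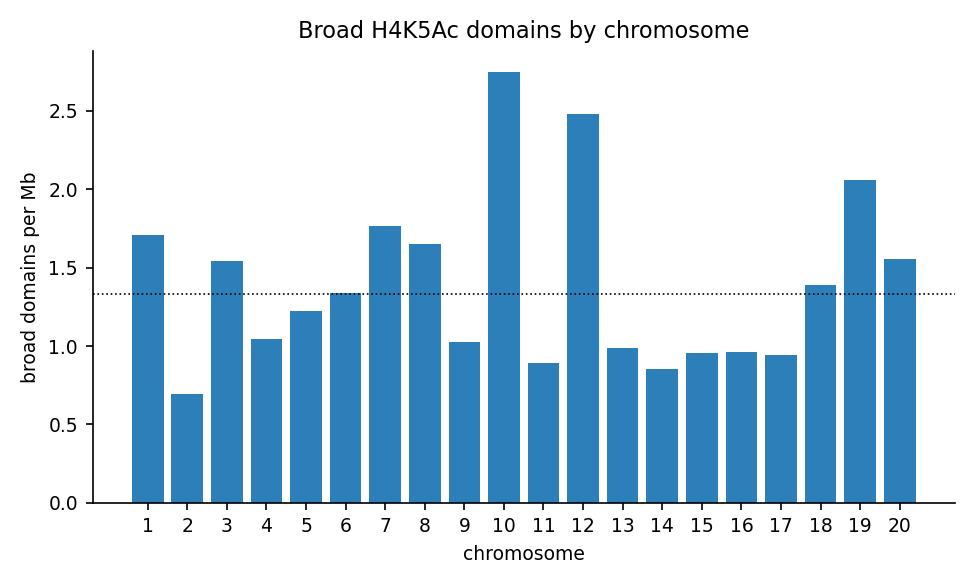
Broad H4K5Ac domains per Mb (y axis) on each of chromosomes 1 to 20 (x axis); the dotted line marks the 1.33 per Mb over all 20. Chromosomes 10, 12 and 19 stand at 2.75, 2.48 and 2.06, and chromosome 2 at 0.697.

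Width and tag rate have a lower limit set by the rule, and their means differed little between chromosomes. Mean width ranged from 3.38 kb on chromosome 11 to 3.81 kb on chromosome 12. The rate over domains was lowest on chromosome 17 in SS (1.502), MS (1.62) and MM (1.58) and on chromosome 15 in SM (1.497), and it was highest on chromosome 3 in all 4 libraries (1.76 for SS, 1.72 for SM, 1.93 for MS and 1.81 for MM). The highest rate was 1.15 to 1.19 times the lowest.

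Within chromosomes the domains were concentrated in a small part of the sequence. Of 2571 bins of 1 Mb, 1405 (54.6%) held none, and 247 bins (9.61%) held 50% of all domains. The highest number, 15, was found in 1 bin of chromosome 3 (from position 9000001) and in 1 of chromosome 7 (from position 10000001). The 241 bins with 5 or more domains held 1681 domains (49.4%) and a median of 39 single raised windows, against 3 in the bins without a domain. Their median input was 9.02 tags per kb against 5.67 in bins without a domain. The outer 5 Mb of the chromosomes held 1.35 domains per Mb and the remainder 1.33, which is close to even.

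The comparison of the libraries addresses whether an acute METH injection, METH pretreatment or both went with another H4K5Ac level over broad domains. Relative to SS, the rate over all domains was 0.983 times in SM (0.977 to 0.989), 1.09 times in MS (1.08 to 1.09) and 1.03 times in MM (1.03 to 1.04). Between the libraries of METH-pretreated rats, the rate of MM was 0.951 times that of MS (0.944 to 0.958). Between the METH-challenged libraries, MM was 1.05 times SM (1.04 to 1.06). Over all 3 kb stretches with 81 or more ChIP tags SM stood at 1.05, MS at 1.07 and MM at 1.04 times SS, and the ratio was 0.977 for MM against MS and 0.994 for MM against SM. These differences are small, and with 1 library per group they cannot be told apart from differences between precipitations or in depth. The direction of SM against SS depended on the scaling: when libraries were scaled by their tags in those 10 kb windows whose input tags lay under the median, the ratio was 1.09. The shares of tags in those windows were lower in SM, MS and MM than in SS, at 0.899, 0.932 and 0.929 times, and with this scaling MS stood at 1.16 and MM at 1.11.

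The direction was the same on all chromosomes for MS and MM against SS, but with all tags not for SM. MS was above SS on 20 of 20 chromosomes, with ratios from 1.03 (chromosome 19) to 1.13 (chromosome 14), and MM was above SS on 20 of 20, from 1.01 (chromosome 2) to 1.06 (chromosome 14). SM was below SS on 14 of 20, from 0.929 (chromosome 15) to 1.03 (chromosome 13), but with the scaling by windows of low input it was above SS on 20 of 20, from 1.03 to 1.14. Chromosomes of 1 library are not replicates.

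By width, the ratio of MS to SS was 1.10 in 3 kb domains, 1.08 in domains of 4 and 5 kb, 1.06 in domains of 6 to 9 kb and 1.05 in those of 10 kb or more. The ratio of MM to SS went from 1.04 in 3 kb domains to 1.00 in those of 10 kb or more. That of SM to SS was 0.985 in 3 kb domains, 0.979 in 4 kb, 0.991 in 5 kb and 0.986 in 6 to 9 kb domains, and 0.926 in the 17 domains of 10 kb or more. With the scaling by windows of low input SM was above SS in each width class, with ratios of 1.09, 1.09, 1.10, 1.10 and 1.03 in the same order. The differences between width classes were not tested.

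A domain was called different between libraries when the ratio of its rates was 1.5 or more, or the inverse, and its interval left out 1. SM was higher than SS in 121 domains (3.55%) and lower in 145 (4.26%), against 6.19% and 3.36% of the 80859 stretches of 3 kb. MS was higher than SS in 255 domains (7.49%) and lower in 77 (2.26%), against 5.86% and 2.71%. MM was higher than SS in 163 domains (4.79%) and lower in 87 (2.56%), against 5.38% and 3.2%. MM was higher than MS in 107 domains (3.14%) and lower in 204 (5.99%), against 3.57% and 4.74%. MM was higher than SM in 163 domains (4.79%) and lower in 73 (2.14%), against 3.91% and 4.43%. In 8 domains (0.235%) SM against SS and MM against MS were called in opposite directions, against 0.381% of the stretches, and with the scaling by windows of low input 4 of the 8 kept both calls. The counts share their libraries and are not independent of one another.

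The stretches had fewer tags than the domains, with a median of 100 against 174 in the 3 kb domains, so the shares were compared again over a matched range of 145 to 205 ChIP tags, with 1126 domains and 8956 stretches. In that range MS was higher than SS in 7.82% of the domains against 7.85% of the stretches and lower in 1.95% against 2.47%. SM was higher than SS in 3.91% against 5.63% and lower in 5.06% against 4.46%. MM was higher than SS in 5.95% against 6.06% and lower in 2.84% against 3.04%. MM was higher than MS in 3.64% against 3.72% and lower in 7.02% against 6.21%. MM was higher than SM in 6.57% against 5.37% and lower in 2.40% against 3.71%. The shares for MS and MM against SS were thus near those of the stretches. Stretches that overlap the domains were not removed, here or among the 80859, so the sets compared are not separate. None of these differences from the stretches was tested.

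With the scaling by windows of low input the split between higher and lower calls changed. SM was then higher than SS in 279 of the 3405 domains (8.19%) and lower in 45 (1.32%), against 11.5% and 1.5% of the stretches. MS was higher than SS in 408 (12.0%) and lower in 43 (1.26%), against 8.44% and 1.79%. For MM against SS, 286 domains were higher (8.40%) and 41 lower (1.20%), against 8.36% and 1.94%. For MM against MS, 108 were higher (3.17%) and 202 lower (5.93%), against 3.65% and 4.59%. For MM against SM, 120 were higher (3.52%) and 98 lower (2.88%), against 3.05% and 5.5%. At 2-fold with all tags, SM was higher than SS in 14 domains (0.411%) and lower in 10 (0.294%), against 3.54% and 1.15% of the stretches. MS was higher in 46 (1.35%) and lower in 26 (0.764%), against 4.22% and 2.32%. MM was higher in 27 (0.793%) and lower in 16 (0.470%), against 3.26% and 1.79%. The shares of domains past 2-fold were below those of the stretches, and the part of the fewer tags of the stretches in this was not tested.

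The called domains with the most extreme ratios were 3 or 4 kb long and had few tags. At chr7:140055001-140058000, SS held 12 tags, SM 50, MS 21, MM 23 and the input 12, and SM was 2.86 times SS (1.504 to 5.91). At chr3:120423001-120426000 the ratio of SM to SS was 2.57 (1.43 to 4.89). In both of these the other METH libraries lay between SS and SM. At chr4:20763001-20766000, SS held 43 tags, SM 25, MS 24, MM 18 and the input 15, and SM was 0.400 times SS (0.234 to 0.669) and MM 0.390 times (0.212 to 0.691). Both libraries with a METH challenge were low there. At chr5:65290001-65293000, SM was 0.412 times SS (0.253 to 0.661).

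For MS the highest ratio was at chr19:20179001-20182000, with 14 tags from SS, 41 from SM, 29 from MS, 25 from MM and 12 from the input, where MS was 3.07 times SS (1.57 to 6.28). At chr10:15468001-15471000, SS held 22 tags, SM 49, MS 43, MM 41 and the input 30, and MS was 2.89 times SS (1.69 to 5.08). SS was the lowest ChIP library by rate in both of these domains. At chr9:53223001-53226000, SS held 33 tags, SM 27, MS 6, MM 35 and the input 14, and MS was 0.269 times SS (0.0922 to 0.651). At chr5:123138001-123141000, SS held 34 tags, SM 41, MS 7, MM 37 and the input 24, and MS was 0.305 times SS (0.114 to 0.699). In both domains MS had the lowest rate of the ChIP libraries, near or below that of the input. At chr9:53223001-53226000 SM was also called lower than SS, at 0.562 times (0.325 to 0.964).

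For MM the highest ratios were at chr1:94864001-94867000, with 17 tags from SS, 51 from SM, 23 from MS, 51 from MM and 25 from the input, and at chr10:20910001-20913000, with 12, 36, 16, 36 and 18 tags. In both, MM was 2.80 times SS, with intervals of 1.59 to 5.16 and 1.42 to 5.90. SS had the lowest rate in both of them, and in both SM and MM held equal numbers of tags. The lowest ratio was at chr1:119773001-119777000, with 50 tags from SS, 43 from SM, 26 from MS, 17 from MM and 21 from the input, where MM was 0.317 times SS (0.171 to 0.559). These named domains were the extremes of the calls and are shown for their values, with no test.

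Many domains depended on windows near the threshold. In 1063 domains (31.2%) at least 1 window had an enrichment under 2.1, and 695 runs of 2 windows (8.76%) had a neighbouring window between 1.9 and 2. The weakest window nearest inside the threshold stood at 2.00 and was shared by 37 domains, of which 3 are shown without a further criterion. They were chr12:15093001-15097000 with 44 tags from SS, 80 from SM, 36 from MS, 41 from MM and 37 from the input, chr3:89730001-89733000 with 26, 59, 23, 25 and 23 tags, and chr11:34549001-34552000 with 47, 85, 49, 69 and 40 tags. Outside it, 18 runs of 2 windows were tied as nearest, and the 3 shown are chr3:158797001-158799000, chr1:184832001-184834000 and chr8:46857001-46859000, each of which had a next window of 57 ChIP and 13 input tags. These runs would have been broad domains at an enrichment just under 2.

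Whether a domain was found again under another setting differed with width. With windows moved by 500 bases there were 3350 domains, and 1917 of the 3405 (56.3%) overlapped one of them, among them 975 of the 2214 domains of 3 kb (44.0%) and 198 of the 208 domains of 6 kb or more (95.2%). With SS left out 80.2% of the domains were found again, with SM left out 79.3%, with MS left out 80.5% and with MM left out 77.3%. Of the 3 kb domains, 71.8 to 75.8% were found again, and of those of 6 kb or more 97.6 to 98.6%. At an enrichment of 3 instead of 2, 264 of the 3405 domains (7.75%) were found again, among them 94 of 3 kb (4.25%) and 65 of 6 kb or more (31.2%). A domain counted as found again when it overlapped a domain of the other setting, which a wide domain can do with other ends.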

How the data were processed

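H4K5Ac ChIP-Seq tags from 4 ChIP libraries and 1 input library were used. The Gerald program was used by the authors for alignment, with reads cut to 41 bases, and the submitters' processing notes name build rn4, which the chromosome ends of the files fit. The deposited values are raw counts of tags in 1 kb windows at every 100 bp, neither normalized nor corrected for input. The sources used here do not say whether repeated tags were removed. Tags per 100 bp were recovered from the overlapping windows, with 0 windows not rebuilt. Totals exclude the mitochondrial chromosome. The domains and tests were chosen with earlier results of these data known. Ratios of tag rates have exact conditional binomial intervals and shares of tags exact Clopper-Pearson intervals, both at 95%. Domains were named by a rule: the 5 widest, the 5 with the highest mean rate, the 2 highest and 2 lowest called ratios to SS per METH library, and 3 of those tied nearest each side of the threshold, taken in the order the sort gave. Windows of the widest domains and the chains were picked after their values were seen. Alternatives are given in the closing section. Python 3.11.15, NumPy 2.4.6, SciPy 1.17.1, pandas 2.3.3 and matplotlib 3.10.9 were used.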

Additional observations from a re-analysis of the deposited data

Results flagged for a closer look

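Chromosome X was outside the rule. By the same rule it held 20 runs of 3 or more raised windows (0.124 per Mb), against 1 with ChIP and input exchanged. The longest of them were 4 kb, and the one at chrX:2968001-2972000 held 58 tags from SS, 77 from SM, 37 from MS, 68 from MM and 25 from the input. The other chromosomes held 1.33 per Mb. The rats were male and carry 1 X chromosome, and the rule set its tag minimum without regard to copy number. The part of copy number in this difference was not tested.

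In 8 domains (0.235%) the METH challenge was called in opposite directions in saline-pretreated rats (SM against SS) and in METH-pretreated rats (MM against MS). The share among 3 kb stretches was 0.381%, and the difference was not tested. In 4 of the 8 domains SM was above SS and MM below MS. Among them a 6 kb domain at chr7:10523001-10529000 held 55 tags from SS, 132 from SM, 66 from MS, 66 from MM and 56 from the input. There SM was 1.65 times SS (1.20 to 2.30) and MM 0.629 times MS (0.441 to 0.899). A 3 kb domain at chr6:138023001-138026000 held 51 tags from SS, 120 from SM, 44 from MS, 45 from MM and 28 from the input. In the other 4 domains SM was below SS and MM above MS, as at chr20:8104001-8107000, where SM was 0.524 times SS (0.320 to 0.850) and MM 2.12 times MS (1.06 to 4.60). With the scaling by windows of low input, 3 of the first 4 domains and 1 of the other 4, at chr20:8104001-8107000, kept both calls. All 8 are named here by this criterion, and the others lie at chr3:161171001-161175000, chr5:106357001-106360000, chr5:169222001-169225000, chr9:53223001-53226000 and chr19:20179001-20182000.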

How the results depend on the processing

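The number of domains was 2103 with a minimum of 40 tags, 10922 and 268 at an enrichment of 1.5 and 3, 7028 with 1 window allowed between, 5367 with low-tag window scaling, and 3183 to 3770 with 1 library left out. At an enrichment of 3, 25.7% of domains had another within 100 kb, and the density of chromosomes differed 7.28 times. The ratio of SM to SS turned above 1 with low-tag window scaling (1.09, also with domains chosen without the counted libraries) and at an enrichment of 1.5 (1.01), and was 0.974 with input subtracted and 0.939 at an enrichment of 3. The ratio of MS to SS was 1.16 with low-tag scaling under both choices of domains, 1.13 with input subtracted and 1.07 in domains of 4 kb or more. The ratio of MM to SS was 1.11 with low-tag scaling, 1.12 when the domains were also chosen without the counted libraries, 1.04 with that choice alone, 1.05 with input subtracted, 1.03 in domains of 4 kb or more and 1.02 at an enrichment of 3, where the interval (0.998 to 1.04) included 1. With low-tag scaling SM was higher than SS in 279 domains (8.19%) and lower in 45 (1.32%), against 11.5% and 1.5% of the stretches. MS was higher in 408 (12.0%) and lower in 43 (1.26%), against 8.44% and 1.79%. MM was higher in 286 (8.40%) and lower in 41 (1.20%), against 8.36% and 1.94%. At 2-fold with all tags, 14 and 10 domains were called for SM (0.411% and 0.294%), against 3.54% and 1.15% of the stretches. For MS these were 46 and 26 (1.35% and 0.764%), against 4.22% and 2.32%. For MM these were 27 and 16 (0.793% and 0.470%), against 3.26% and 1.79%. The causes of these changes were not tested, apart from the stricter limits, which keep fewer windows. Alternatives of the input level, the matched stretches, the exchange and chromosome X were chosen after seeing the data. So was low-tag scaling together with domains chosen without the counted libraries. No paired analysis was possible because each group was 1 library. Depth limits the calls in single domains, with a median of 34 tags in MS.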
